A study of Mus musculus with 10 samples.

Results

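The collagen chains are the 44 genes of 23364 in the deposited tables whose symbol is Col, a number, the letter a and a number, with nothing after it. They were taken by that name alone, and each gene codes for 1 chain of a collagen molecule. By structure, 11 are fibrillar chains, 6 are chains of the basement membrane network, 3 belong to the zone beside the basement membrane, 6 are chains of type VI and its kin (microfibrillar), 3 are short-chain network collagens, 9 are fibril-associated chains (FACIT), 4 are transmembrane chains and 2 fall outside these classes.

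RNA was sequenced from crypts of the mouse distal colon in 10 libraries. For DSS there were 4 libraries, from mice that received dextran sulfate sodium, a polymer that injures the colon epithelium and provokes colitis. For AOM+DSS there were 3, from mice that received AOM (azoxymethane, a carcinogen that alkylates DNA) and afterwards DSS, a condition the submitters describe as cancer induced by inflammation. For control there were 3, from untreated mice. The sources used here give no strain, age, sex, dose or sampling time. Nor do the labels tie each library to an animal of its own, and the p-values then measure the spread between these samples alone, which may be technical. Crypts were released by shaking minced tissue in EDTA, a step that enriches epithelium but does not remove every cell of the tissue beneath it.

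Collagen chains wind around each other in a triple helix, either as copies of 1 chain or as a fixed mix of different chains. Fibrillar types such as I and III form the load-bearing fibrils of connective tissue and come mainly from fibroblasts and smooth muscle cells. Type IV forms the sheet-like network of the basement membrane on which gut epithelium rests, and FACIT chains decorate fibrils without forming them. In the colon the lamina propria under the crypts is the usual home of the fibrillar types.

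Values below are normalized reads, that is reads divided by the DESeq size factor of their library. The deposited tables print group means only, and the whole reads of each library were recovered from the digits of those means, which gave 1 solution for all 44 chains in every group. Within each group, letters run from the deepest library (a) downward, and which letter matches which labelled replicate is unknown. A chain was called changed against control where the adjusted p of DESeq in the authors' deposited table was under 0.05. AOM+DSS was compared with DSS by limma on log2(normalized reads + 1) with Benjamini-Hochberg adjustment over all 13530 genes that could be tested. Standard errors of log2 differences (SE) are from limma throughout and belong to limma's own difference of mean log2 values. That difference is not the log2 fold change of group means printed beside a limma SE. For Col4a1 in AOM+DSS, for example, the 2 were 3.17 and 2.77.

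Collagen reads were few in each library. The 44 chains held 826 to 2031 raw reads in the DSS libraries, 3582 to 6096 in the AOM+DSS libraries and 1770 to 3283 in the control libraries. The size factors were 0.645 to 1.27 in DSS, 0.905 to 1.34 in AOM+DSS and 0.944 to 1.04 in control. Epithelial markers were high in each group, with Epcam at a mean of 28156 in DSS, 28957 in AOM+DSS and 24719 in control, and none of 8 epithelial markers was called by DESeq in either comparison with control or had an unadjusted p under 0.05. A pair of libraries stood apart within its group. Summed over 7 smooth muscle markers whose reads were recovered in every library, AOM+DSS library c had 12177 normalized reads, against 303 and 218 in AOM+DSS a and b. Control library b had 1392, against 255 and 197 in control a and c, and the 4 DSS libraries had 194 to 251. Control library b also had the most fibroblast marker reads of its group, 2188 against 648 and 559. The 12 fibroblast markers summed to 706 to 2219.6 in DSS, 3000.5 to 5351 in AOM+DSS and 559 to 2188 in control, and the 5 myeloid markers to 268 to 1613 in DSS, 2158 to 5729.6 in AOM+DSS and 99.6 to 1186 in control. Control b also had the most myeloid reads of its group, 1186 against 198 and 99.6 in a and c, while AOM+DSS c had the fewest of its group. The 8 endothelial markers summed to 307 to 705 in DSS, 306 to 853 in AOM+DSS and 489 to 847 in control. They too were highest in AOM+DSS c (853, against 306 and 411) and in control b (847, against 489 and 576) within their groups. The 4 glial markers summed to 18.6 to 31.3 in DSS, 27.3 to 49.7 in AOM+DSS and 56.3 to 60.8 in control. DESeq called no smooth muscle, endothelial or glial marker in either comparison (at an unadjusted p under 0.05, 1 endothelial marker in each and none of the others). Of the fibroblast markers it called Pdgfrb lower in DSS (log2 fold change -1.10, adjusted p = 0.00619) and in AOM+DSS (-1.33, adjusted p = 0.000283), and Vim (3.52, adjusted p = 0.0411) and Fbln1 (3.02, adjusted p = 0.00603) higher in AOM+DSS. Of the myeloid markers it called Csf1r (3.09, adjusted p = 0.0224) and Emr1 (3.69, adjusted p = 0.00505) higher in AOM+DSS and none in DSS. In AOM+DSS 5 of 5 myeloid and 3 of 12 fibroblast markers had an unadjusted p under 0.05. In DSS 1 myeloid and 1 fibroblast marker had one. Over all genes the share was 18.9% in AOM+DSS and 13.2% in DSS. DESeq called 5.54% of all genes higher and 3.35% lower in AOM+DSS, and 2.61% and 1.78% in DSS. In bulk RNA of this kind, fewer cells of a type and less RNA per cell cannot be told apart.

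**Figure D1:**
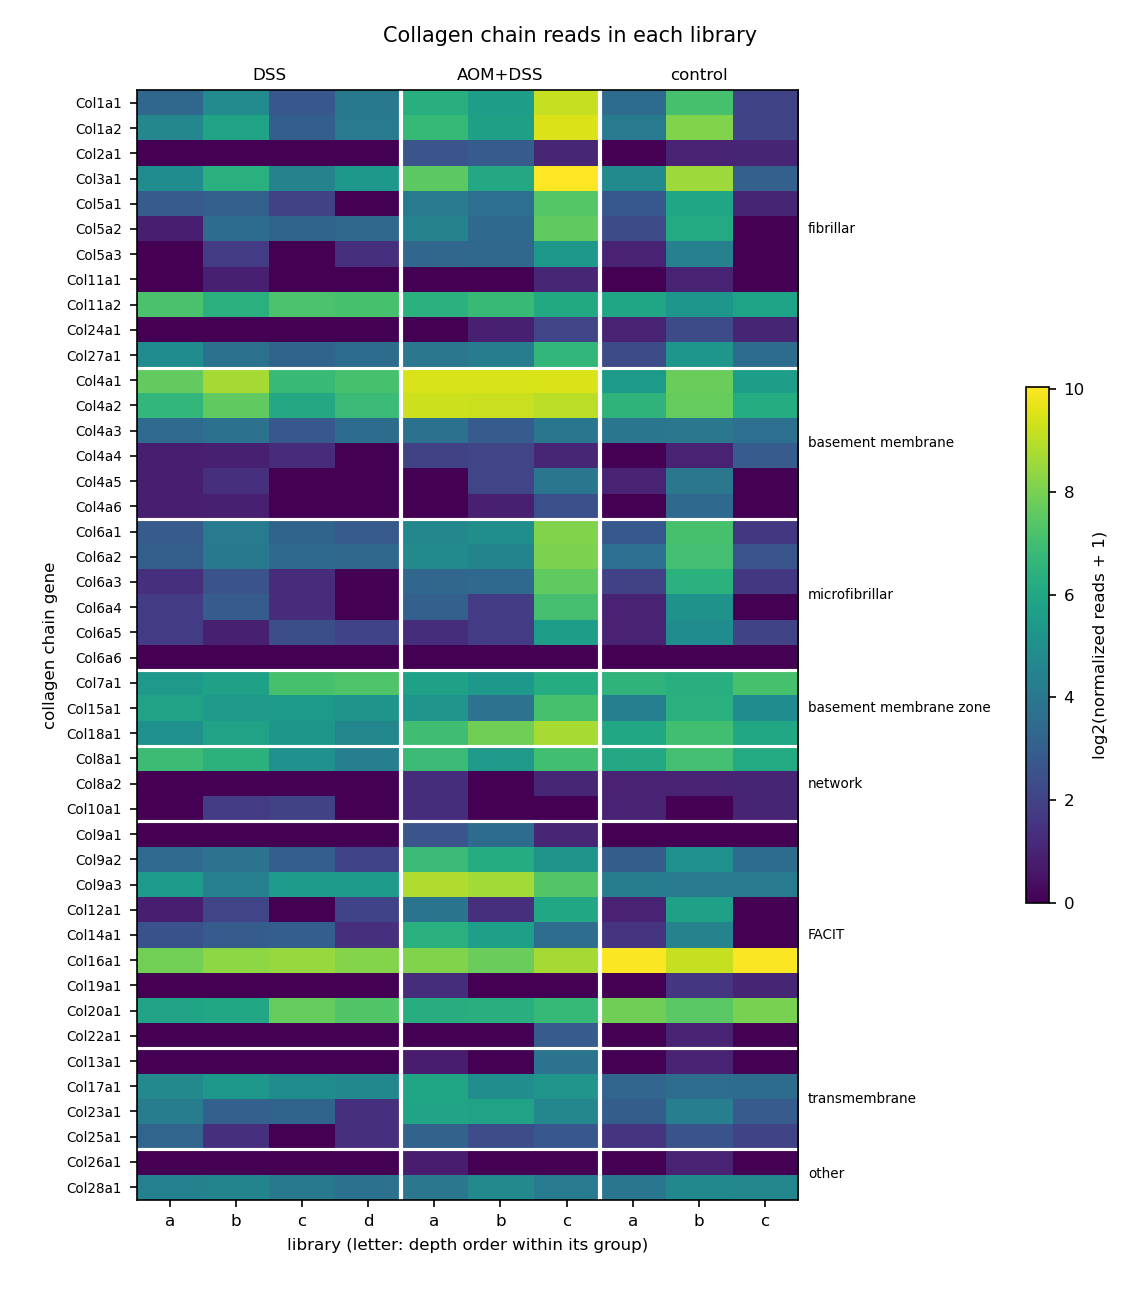
Each row is a collagen chain gene, grouped by class, and each column a library; colour is log2(normalized reads + 1). Col16a1 is the brightest row in control, Col4a1 and Col4a2 are bright in all 3 AOM+DSS libraries, and the fibrillar and microfibrillar rows light up in AOM+DSS library c and control library b.

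The most abundant collagen of untreated crypts was Col16a1, the chain of type XVI, a FACIT of connective tissue. It fell in both treated groups. Per kilobase of transcript, Col16a1 averaged 57.9 normalized reads in DSS, 58.5 in AOM+DSS and 165 in control, and its rank among the 44 chains was 1 in each DSS and each control library and 4, 4 and 5 in AOM+DSS a, b and c. The libraries held 237, 322, 354 and 292 normalized reads in DSS, 282, 216 and 415 in AOM+DSS and 994, 572 and 1012 in control. Each treated library was lower than each control library, and control b was the lowest control. The log2 fold change in the authors' deposited tables was -1.51 for DSS (limma SE 0.23) with a DESeq adjusted p of 0.000925, and -1.50 for AOM+DSS (limma SE 0.29) with a DESeq adjusted p of 0.00166. AOM+DSS and DSS differed by -0.02 (SE 0.24, limma adjusted p = 0.977), so a difference between the treatments was not detectable. Without control a or without control c, limma no longer called the fall in either comparison, nor in AOM+DSS without AOM+DSS a, with an adjusted p of up to 0.0841 for DSS and 0.0846 for AOM+DSS. Calls over all genes also fell in these fits. In DSS 2.6% were called lower with all libraries, and 0.304% and 0.403% without control a and c. In AOM+DSS 6.35% fell to 0.461%, 0.791% and 0.888% without control a, control c and AOM+DSS a.

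Col20a1, a FACIT chain first described in chick tissue, came after Col16a1 in control, with a mean per kilobase of 23.8 normalized reads in DSS, 17.1 in AOM+DSS and 44.2 in control. Its normalized reads were 56.9, 62.6, 201 and 157 in DSS, 75.1, 77.8 and 104 in AOM+DSS and 229.8, 175 and 259.5 in control. All AOM+DSS libraries were below all controls, while DSS library c reached into the control range and a, b and d did not. It fell in AOM+DSS, by 1.37 on the log2 scale (limma SE 0.24, DESeq adjusted p = 0.0313), and had a log2 fold change of -0.89 in DSS (limma SE 0.44, DESeq adjusted p = 0.132). The AOM+DSS call was lost in limma without control a, without control c and without AOM+DSS a, with an adjusted p of up to 0.0761. In those fits 0.461%, 0.791% and 0.888% of all genes were called lower, against 6.35% with all libraries.

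The make-up of the collagen reads differed between libraries, and the share of Col16a1 set AOM+DSS apart from the other groups. In this share the DSS libraries were below control a and c but above control b. Col16a1 held 19.2% to 26.8% of all collagen reads in the DSS libraries and 6.17% to 8.29% in the AOM+DSS libraries, against 54.4%, 17.6% and 54.0% in control a, b and c. Control b differed from the other controls in that Col1a1, Col1a2 and Col3a1 held 24.3% of its collagen reads, against 2.96% in a and 0.73% in c. Among the AOM+DSS libraries the same 3 chains held 10.6%, 5.58% and 34.9% in a, b and c.

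**Figure D2:**
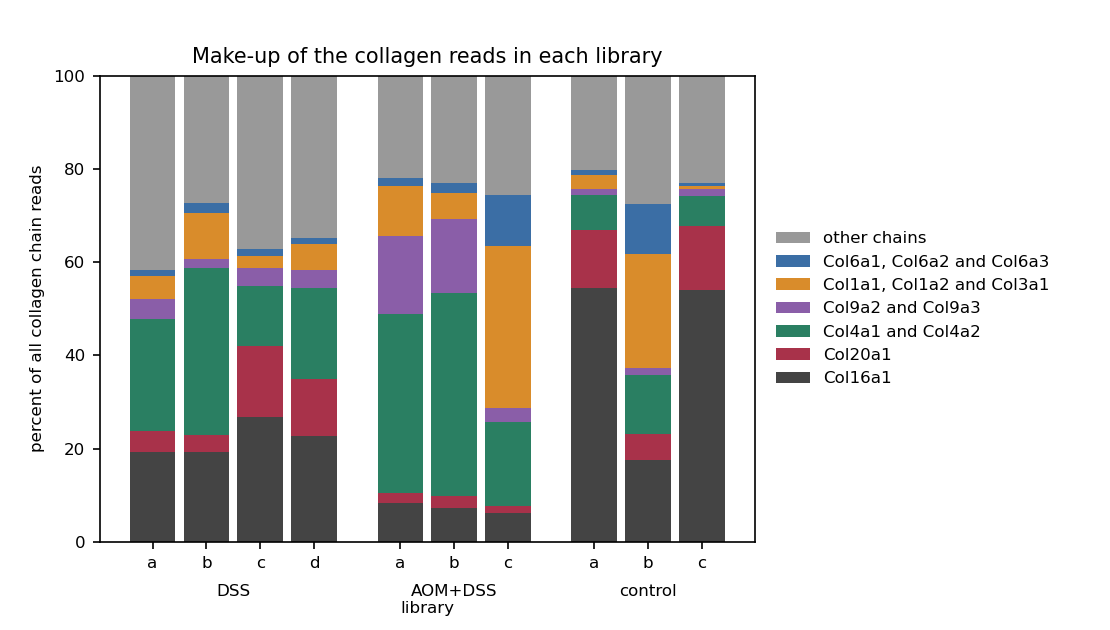
Each bar is a library, split by the percent of its collagen reads in named chains. Col16a1 takes 54.4% and 54.0% in control a and c, and Col4a1 with Col4a2 take 38.3% and 43.4% in AOM+DSS a and b.

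In the basement membrane class, DESeq called 2 of 6 chains higher in AOM+DSS, where 5.54% of all genes were. Col4a1 and Col4a2, which combine into the standard type IV molecule of most basement membranes, rose together in AOM+DSS. They lie head to head on mouse chromosome 8, and in RefSeq (GRCm38.p6) their starts are 21 bases apart, so that the windows from 250 bases before to 50 bases after each start share 78 bases. Both windows are shown because both genes passed the test in AOM+DSS, and the window of Col16a1 because it passed the test in both treated groups. Capitals mark CCAAT and GGGCGG on either strand. Col4a1 is read from chr8:11312777-11313076 on the minus strand, Col4a2 from chr8:11312555-11312854 on the plus strand and Col16a1 from chr4:130047590-130047889 on the plus strand.
Col4a1: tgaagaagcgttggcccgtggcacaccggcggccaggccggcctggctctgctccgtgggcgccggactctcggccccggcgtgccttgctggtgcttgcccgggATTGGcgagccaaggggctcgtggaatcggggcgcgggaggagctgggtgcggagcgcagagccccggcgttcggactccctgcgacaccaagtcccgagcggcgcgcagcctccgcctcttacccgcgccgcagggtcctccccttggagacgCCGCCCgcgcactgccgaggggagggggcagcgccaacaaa
Col4a2: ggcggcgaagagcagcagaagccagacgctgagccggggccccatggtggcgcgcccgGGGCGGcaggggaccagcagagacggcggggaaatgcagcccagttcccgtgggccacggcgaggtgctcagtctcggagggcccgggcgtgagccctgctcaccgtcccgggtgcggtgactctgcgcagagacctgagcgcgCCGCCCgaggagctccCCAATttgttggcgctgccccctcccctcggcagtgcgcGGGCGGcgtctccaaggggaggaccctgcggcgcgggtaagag
Col16a1: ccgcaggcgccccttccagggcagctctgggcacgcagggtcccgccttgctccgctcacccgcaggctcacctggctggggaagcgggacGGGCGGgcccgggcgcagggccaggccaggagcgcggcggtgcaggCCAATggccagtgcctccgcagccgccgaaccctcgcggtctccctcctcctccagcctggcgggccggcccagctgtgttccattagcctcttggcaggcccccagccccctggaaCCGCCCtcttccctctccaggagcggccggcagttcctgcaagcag
The windows are 74.0%, 73.7% and 74.3% G and C for Col4a1, Col4a2 and Col16a1 and hold 37, 33 and 24 CG pairs, where the median of 32851 RefSeq promoters of this length is 52.7% and 7 pairs. Each of the 3 holds CCAAT, which 37.4% of all promoters hold, and GGGCGG, which 35.7% hold; TATAAA, in 13.6% of all promoters, is in none of the 3. The window of Col20a1, which passed the test in AOM+DSS only, is not shown. It is 50% G and C, holds 1 CG pair and has neither CCAAT nor GGGCGG. Col9a3, which also passed the test in AOM+DSS, had no promoter entry. Of 38 promoter entries for 35 of the chains, 13 hold CCAAT and 23 hold GGGCGG. A match of letters is a description of the sequence and not evidence of binding.

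Col4a1 had 198, 406, 106 and 136 normalized reads in DSS, 683, 680 and 708 in AOM+DSS and 43.4, 213 and 46.6 in control. The AOM+DSS libraries lay close together and above every other library, and control b reached into the DSS range. In AOM+DSS the log2 fold change over control was 2.77 (limma SE 0.55, DESeq adjusted p = 2.47e-09). In DSS Col4a1 rose as well in the authors' deposited table, with a log2 fold change of 1.07 and a DESeq adjusted p of 0.0351, but limma gave 1.27 (SE 0.61, adjusted p = 0.27) and did not call it with all libraries or with any library left out.

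Col4a2 had 99.6, 190.3, 65.1 and 113 normalized reads in DSS, 619, 607 and 505 in AOM+DSS and 91.7, 201 and 74.1 in control. Every AOM+DSS library was above every control and every DSS library, and DSS and control overlapped. Its log2 fold change was 2.24 in AOM+DSS (limma SE 0.35, DESeq adjusted p = 1.17e-10) and -0.06 in DSS (limma SE 0.43, DESeq adjusted p = 1). Leaving out each library in turn, limma called Col4a2 in AOM+DSS all 6 times (adjusted p 0.000656 to 0.0448) and Col4a1 3 of 6 times (0.000195 to 0.057). In AOM+DSS a, b and c, Col4a1 was 683, 680 and 708 where the smooth muscle markers summed to 303, 218 and 12177. In the same order, the fibroblast markers summed to 3662, 5351 and 3000.5. The endothelial markers summed to 306, 411 and 853 and the myeloid markers to 2643, 5730 and 2158. In control both chains were highest in library b, 4.74 times the mean of a and c for Col4a1 and 2.43 times for Col4a2. Which cells the reads of both chains came from was not tested.

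Per kilobase, the ratio of Col4a1 to Col4a2 was 1.93, 2.08, 1.59 and 1.18 in DSS, 1.08, 1.09 and 1.37 in AOM+DSS and 0.46, 1.03 and 0.61 in control. Every treated library was above every control library. On the log2 scale the ratio averaged 0.73 ± 0.37 in DSS (SD, n = 4) and -0.59 ± 0.59 in control (SD, n = 3), and the two-sided exact permutation test gave p = 0.0286, the smallest that its 35 splits allow, or 0.0857 adjusted over 3 comparisons of this ratio. AOM+DSS averaged 0.23 ± 0.19 (SD, n = 3), with an exact permutation p of 0.1 against control, the smallest that 20 splits allow, and of 0.114 against DSS, and both were 0.114 after adjustment. Because the kit does not mark strand and the counting is not described, reads in any shared stretch of overlapping genes cannot be assigned with certainty, and RefSeq lists Col4a1 and Col4a2 as overlapping. It also lists Gm12963 and Gm46871 across Col16a1 and Gm30797 across Col20a1.

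The other chains of type IV were scarce. Col4a3, found with Col4a4 and Col4a5 in the basement membranes of kidney and lung, had 5.66 to 12.4 normalized reads in DSS, 6.62 to 14.4 in AOM+DSS and 11.7 to 14.8 in control. Col4a4, Col4a5 and Col4a6 stayed at or below a mean of 5.89 in each group, and none of these 4 chains was called in any comparison. Col4a5 and Col4a6 had 14.8 and 9.88 normalized reads in control b and at most 0.965 in control a and c.

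Type IX, a cartilage FACIT built from Col9a1, Col9a2 and Col9a3 and best known on type II fibrils, gave the largest fold change among the called chains. Col9a3 had 43.5, 19.8, 43.9 and 45.0 normalized reads in DSS, 457, 399.5 and 162 in AOM+DSS and 17.4, 16.8 and 15.9 in control. The groups did not overlap: AOM+DSS was highest in all its libraries, DSS lay in between and control was lowest, at 15.9 to 17.4. The log2 fold change was 4.35 in AOM+DSS (limma SE 0.42, DESeq adjusted p = 0.000187) and 1.19 in DSS (limma SE 0.41, DESeq adjusted p = 0.706), and limma called the rise in AOM+DSS under each left-out library (adjusted p 0.00127 to 0.0223). Per kilobase Col9a3 ranked 1 among the 44 chains in AOM+DSS a and b and 10 in c, with a group mean of 112, against 12.5 in DSS and 5.48 in control. RefSeq lists Tcfl5 as overlapping Col9a3, and 1 read of Tcfl5 was counted in all 10 libraries together. How the counting treated reads in a shared stretch is unknown, so this count cannot show whether any were shared.

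Col9a2 had 10.3, 13.2, 7.08 and 3.10 normalized reads in DSS, 112, 72.8 and 35.4 in AOM+DSS and 6.76, 31.6 and 10.6 in control. All AOM+DSS libraries were higher than all others, yet AOM+DSS c and control b were close, and the log2 fold change of 2.17 over control was not called (limma SE 0.66, DESeq adjusted p = 0.114). Col9a1 had 5.21, 10.8 and 1.10 normalized reads in AOM+DSS, 21 raw reads in all, and none in DSS or control. Against a floor of 3 raw reads over the group it was at least 5.67-fold higher in AOM+DSS than in control and at least 7.26-fold higher than in DSS; limma called it against control (adjusted p = 0.0375) and DESeq did not (0.567). Col2a1, the fibrillar chain that type IX accompanies in cartilage, had 5.21, 6.62 and 1.10 in AOM+DSS, none in DSS and 0, 0.99 and 1.06 in control, so each AOM+DSS library was above each library of the other groups, by a few reads. All 4 of these chains were lowest in AOM+DSS library c, the library with the most smooth muscle marker reads.

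**Figure D3:**
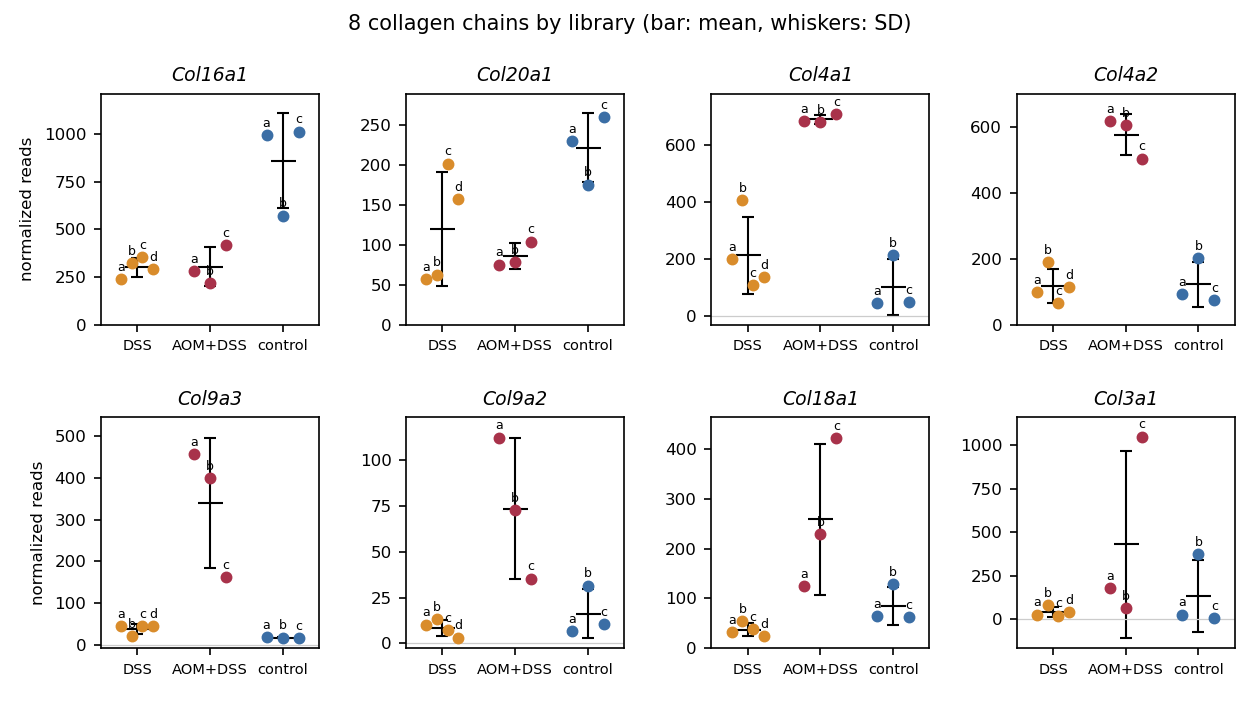
Normalized reads (linear axis) of 8 chains in each library, marked by letter, with the mean (bar) and SD (whiskers) of DSS, AOM+DSS and control. Col16a1 and Col20a1 are highest in control, Col4a1, Col4a2, Col9a3 and Col9a2 are highest in the AOM+DSS libraries, and Col3a1 is carried by AOM+DSS c at 1049.5 and control b at 373.

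Among chains at the basement membrane zone, Col18a1 set the treatments apart. Type XVIII is a heparan sulfate proteoglycan of basement membranes whose end fragment is endostatin, an inhibitor of vessel growth. Its normalized reads were 31.6, 53.6, 38.2 and 23.3 in DSS, 124, 229.9 and 423 in AOM+DSS and 64.7, 128 and 61.4 in control. Every DSS library was below every control, and every AOM+DSS library was above every DSS library, while AOM+DSS a fell just under control b. Neither difference from control was called, with log2 fold changes of -1.21 in DSS (limma SE 0.39, DESeq adjusted p = 0.65) and 1.61 in AOM+DSS (limma SE 0.47, DESeq adjusted p = 0.375). AOM+DSS exceeded DSS by 2.68 on the log2 scale (SE 0.44, limma adjusted p = 0.0144).

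Col15a1, a close relative of Col18a1 that bridges basement membranes to fibrils, had 54.5, 42.0, 43.9 and 35.7 normalized reads in DSS, 36.4, 13.2 and 138 in AOM+DSS and 19.3, 82.0 and 28.6 in control. AOM+DSS c and control b were the highest libraries and the groups overlapped, with log2 fold changes of 0.02 in DSS and 0.53 in AOM+DSS (DESeq adjusted p = 1 for both). Col7a1, the chain of the anchoring fibrils that tie epithelial basement membranes to the matrix below, had 41.9, 52.7, 137 and 152 in DSS, 52.1, 39.7 and 74.0 in AOM+DSS and 90.8, 80.0 and 137 in control. Each AOM+DSS library was below each control, whereas the DSS libraries split, a and b below and c and d at or above the highest control. The log2 fold change was -0.89 in AOM+DSS (limma SE 0.35, DESeq adjusted p = 0.444) and -0.09 in DSS (limma SE 0.48, DESeq adjusted p = 1).

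Of the transmembrane chains, Col17a1 separated the treated libraries from control and Col23a1 the AOM+DSS libraries from the rest. Col17a1, a hemidesmosome protein that anchors epithelial cells to the basement membrane, had 25.3, 40.4, 28.3 and 24.8 normalized reads in DSS, 61.0, 29.0 and 36.5 in AOM+DSS and 8.69, 10.9 and 10.6 in control. Each treated library was above each control. The log2 fold change of 2.07 in AOM+DSS just missed the threshold in DESeq (adjusted p = 0.0517) and passed it in limma (1.90, SE 0.44, adjusted p = 0.0274); in DSS it was 1.56 (limma SE 0.40, DESeq adjusted p = 0.267). Col23a1 had 17.4, 7.42, 8.50 and 1.55 in DSS, 57.3, 53.8 and 24.3 in AOM+DSS and 6.76, 18.8 and 6.36 in control. All AOM+DSS libraries were above all others, with a log2 fold change of 2.09 over control that limma called (SE 0.57, adjusted p = 0.0464) and DESeq did not (0.096). Col13a1 and Col25a1 had means of at most 5.95 in each group and were not called.

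Col11a2, a chain of type XI that sits inside cartilage fibrils, was the only fibrillar chain of 9 with reads in both groups whose log2 fold change in DSS was above 0. It had 141, 80.7, 144 and 136 normalized reads in DSS, 83.3, 108 and 67.4 in AOM+DSS and 59.9, 37.5 and 56.1 in control. Each treated library was above each control. The log2 fold change in DSS was 1.295, which missed the threshold in DESeq (adjusted p = 0.0512) and passed it in limma (1.27, SE 0.30, adjusted p = 0.0437), and in AOM+DSS it was 0.75 (limma SE 0.33, DESeq adjusted p = 0.327).

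The fibrillar chains of ordinary connective tissue and the type VI chains had their highest values in single libraries. Col3a1, the type III chain, had 28.5, 80.7, 21.2 and 40.3 normalized reads in DSS, 180.0, 66.2 and 1049.5 in AOM+DSS and 27.0, 373 and 7.41 in control. Col1a1, of type I, had 9.49, 28.0, 5.66 and 15.5 in DSS, 77.3, 48.0 and 562 in AOM+DSS and 10.6, 136 and 3.18 in control. Its partner Col1a2 had 23.7, 56.9, 7.08 and 17.1 in DSS, 104, 51.3 and 736 in AOM+DSS and 16.4, 279 and 3.18 in control. In all 3 chains AOM+DSS c and control b were the highest libraries of their groups by far, and the groups of AOM+DSS and control overlapped.

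Type V chains, which seed type I fibrils, and type VI chains, which form beaded filaments around cells, had the same order of libraries. Col5a1 had 0 to 7.42 normalized reads in DSS, 17.1, 11.6 and 165 in AOM+DSS and 5.79, 58.3 and 1.06 in control, and Col5a2 had 0.79 to 10.7 in DSS, 21.6, 9.93 and 189 in AOM+DSS and 3.86, 69.1 and 0 in control. Col6a1 had 6.20 to 17.3 in DSS, 23.8, 30.6 and 278 in AOM+DSS and 5.79, 136 and 2.12 in control. Col6a2 had 7.11 to 15.7 in DSS, 26.8, 22.3 and 264 in AOM+DSS and 11.6, 129 and 5.30 in control, and Col6a3 had 0 to 4.94 in DSS, 8.92, 9.93 and 192 in AOM+DSS and 2.90, 84.9 and 2.12 in control. In each of the 5, AOM+DSS c and control b stood above the other libraries of their group.

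None of these 8 chains was called against control with all libraries. In the authors' deposited tables their log2 fold changes were -3.92 (Col6a3) to -1.67 (Col3a1) in DSS, with a DESeq adjusted p of 0.682 to 0.951, and 1.10 (Col6a2) to 2.20 (Col1a1) in AOM+DSS, with a DESeq adjusted p of 0.855 to 1. Without control b the sign in DSS turned for 7 of the 8 in limma, to between 0.068 (Col5a1) and 1.61 (Col5a2), none of them called. In AOM+DSS limma then called Col1a1, Col1a2, Col3a1 and Col6a1 higher, where 15.1% of all genes were.

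Of the 27 chains with over 3 raw reads in control a and c together and in AOM+DSS a and b together, 10 were over 5 times higher both in control b than in the mean of its group's other libraries and in AOM+DSS c than in the mean of a and b. These were Col1a1, Col1a2, Col3a1, Col5a1, Col5a2, Col6a1, Col6a2, Col6a3, Col6a5 and Col27a1, 6 fibrillar and 4 microfibrillar chains. Another 9 of the 27, Col4a2 and Col9a3 among them, were lower in AOM+DSS c than in the mean of a and b. Smooth muscle marker reads moved with the 10 chains in both libraries. So did most fibroblast markers: 10 of 12 were highest in AOM+DSS c within its group, and 11 of 12 in control b within its group. Postn, a fibroblast matrix protein, had 12.6, 4.96 and 191 in AOM+DSS and 5.79, 117 and 1.06 in control. The exceptions in AOM+DSS c were the abundant Vim (2513, 4048 and 875) and Fbln1 (609, 915 and 255), with which the summed fibroblast reads were lowest there (3662, 5351 and 3000.5). The summed endothelial markers were also highest in AOM+DSS c and in control b within their groups. The part of these cells in the collagen values was not tested.

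**Figure D4:**
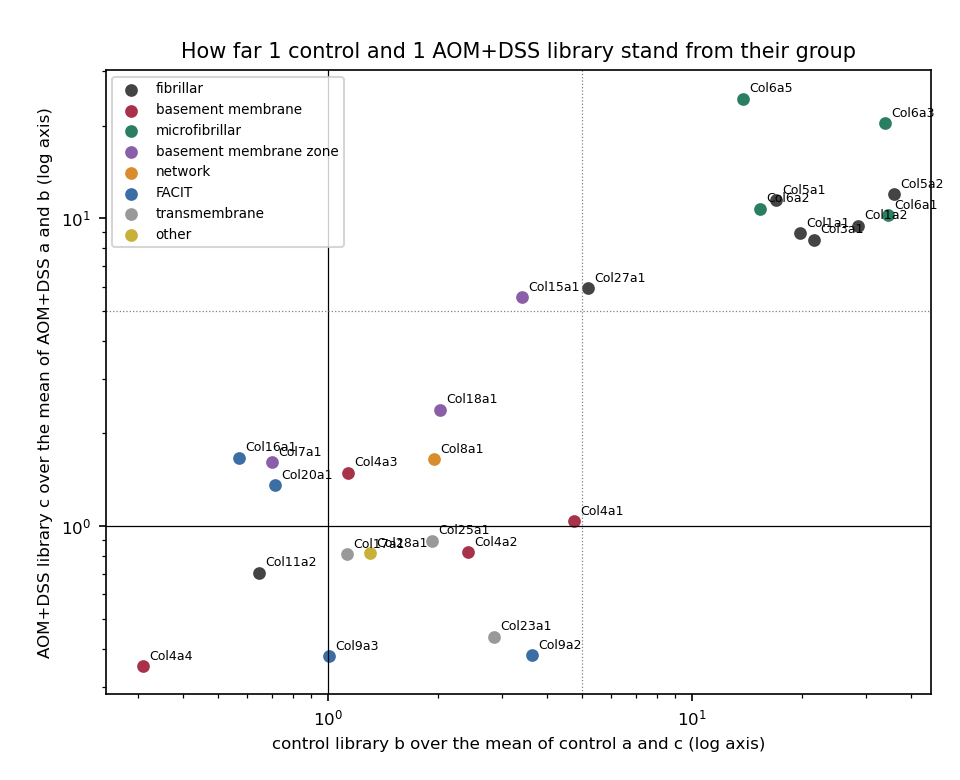
Each point is a chain, coloured by class. The x axis (log) gives control b over the mean of control a and c, and the y axis (log) gives AOM+DSS c over the mean of AOM+DSS a and b. The 10 chains beyond both dotted lines at 5 are fibrillar or microfibrillar, while Col9a3 and Col4a4 lie under 1 on the y axis.

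The short-chain and remaining FACIT chains were less abundant. Col8a1, a network chain known from vessel walls and the cornea, had 117, 85.7, 32.6 and 18.6 normalized reads in DSS, 114, 41.4 and 128 in AOM+DSS and 65.7, 131 and 68.8 in control. The groups overlapped, DSS a and b were above c and d, and the log2 fold changes were -0.48 in DSS and 0.09 in AOM+DSS (DESeq adjusted p = 1 for both). Col14a1, a FACIT of dense connective tissue, had 4.74, 6.59, 7.08 and 1.55 in DSS, 81.1, 49.6 and 11.05 in AOM+DSS and 1.93, 21.7 and 0 in control. It was high in AOM+DSS a and b and not in c, the reverse of type I. Col6a6 had no reads in any library, 9 chains had none in DSS, Col6a6 and Col9a1 had none in control, and 15 chains stayed under a mean of 10 in every group.

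In all, DESeq called 2 of 42 tested chains in DSS. Col4a1 was the only one higher, where 2.61% of all 18099 genes tested were called higher, and Col16a1 was the only one lower, where 1.78% of all genes were. In AOM+DSS it called 5 of 43 tested. Col4a1, Col4a2 and Col9a3 were higher (5.54% of all 18334 genes), and Col16a1 and Col20a1 were lower (3.35% of all genes). These counts are small, and the shares of the chains called are near those of all genes, so the count itself says little about collagens as a class. Every DSS library was above every control in 3 chains and below every control in 4, where 8.29% and 11.2% of all genes were. Every AOM+DSS library was above every control in 9 chains and below every control in 3, where 20.7% and 17.6% of all genes were. Without adjustment, 5 chains in DSS (13.2% of all genes) and 8 in AOM+DSS (18.9% of all genes) had p under 0.05. Limma called Col11a2 higher (2.45% of 13249 genes) and Col16a1 lower (2.6%) in DSS. In AOM+DSS it called 6 chains higher (10.7% of 18067 genes) and 2 lower (6.35%), adding Col9a1, Col17a1 and Col23a1. With control b left out limma called 15 chains in AOM+DSS, 13 higher and 2 lower, where 15.1% and 8.38% of all genes were called. Col1a1, Col1a2, Col3a1 and Col6a1 were then among those higher. With AOM+DSS c left out as well limma called 19, 16 higher and 3 lower (21.8% and 15.2% of all genes), and Col6a3 was then higher too. Each of 3 single libraries reduced the AOM+DSS count to 2 when left out (control a, control c and AOM+DSS a), which left Col4a2 and Col9a3. In these 3 fits 2.43%, 3.05% and 3.04% of all genes were called higher and 0.461%, 0.791% and 0.888% lower.

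**Figure D5:**
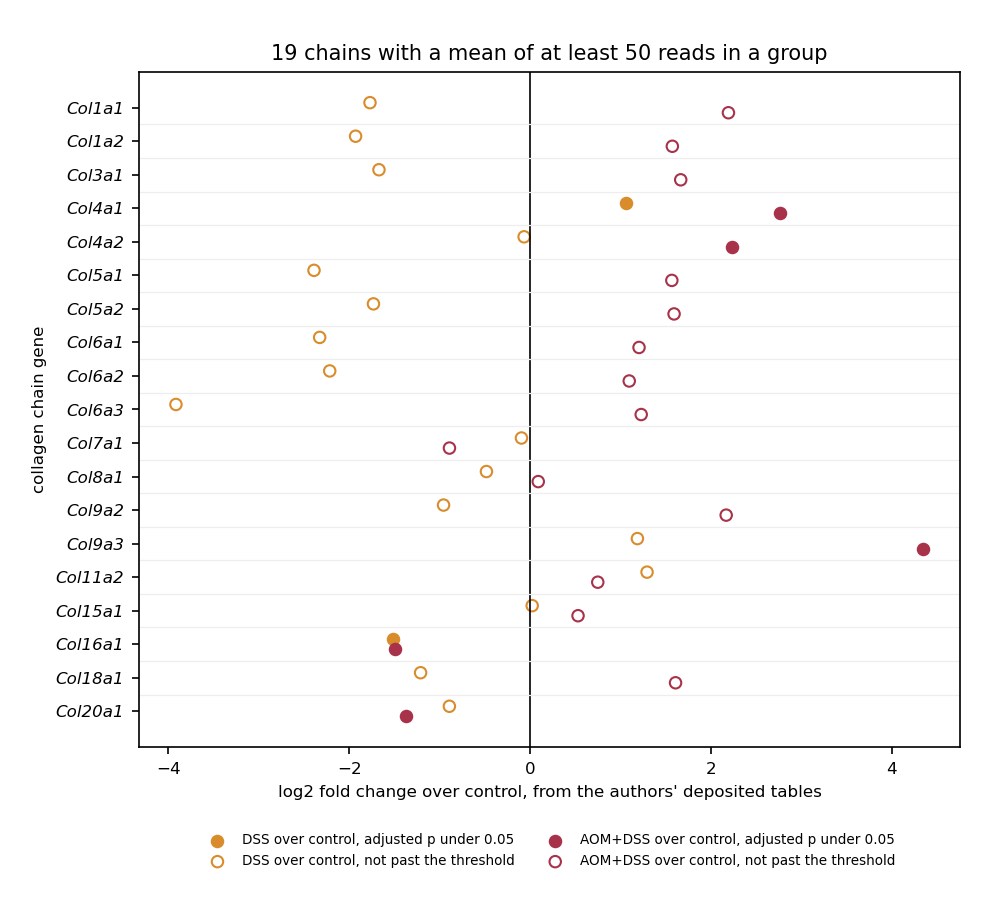
Log2 fold change over control in the authors' deposited tables (x axis) for 19 chains with a mean of at least 50 normalized reads in a group, for DSS and AOM+DSS. Filled points have a DESeq adjusted p under 0.05; the fibrillar chains other than Col11a2 and the type VI chains lie below 0 in DSS and above 0 in AOM+DSS, with no filled point among them.

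Over all chains with reads in both groups, the median log2 fold change was -0.96 in DSS, with 6 chains above 0 and 29 below, beside 0.02 for all genes. In AOM+DSS it was 1.15, with 31 chains above and 11 below, again beside 0.02. With chains at 0 in a group set to the floor of 3 reads, the medians were -0.92 and 1.21. The sign of each median turned with a single library left out. Without control b the DSS median was 0.41. Without AOM+DSS c, and with control b kept, the AOM+DSS median was -0.17. With control b and AOM+DSS c both left out, limma called 16 chains higher and 3 lower in AOM+DSS (21.8% and 15.2% of all genes). By class, the median in AOM+DSS was 1.57 for 11 fibrillar, 1.21 for 5 microfibrillar, 0.09 for 6 basement membrane and 2.08 for 4 transmembrane chains. In DSS it was -1.73 for 9 fibrillar, -2.22 for 5 microfibrillar, -1.09 for 6 basement membrane and -0.17 for 3 transmembrane chains. FACIT chains had 1.35 in AOM+DSS (8 chains) and -0.92 in DSS (6 chains). The remaining classes had 1 to 3 chains each and are not given. The basement membrane class takes in Col4a4, Col4a5 and Col4a6, with 3, 3 and 2 raw reads in DSS. Its abundant chains, Col4a1 and Col4a2, were at 1.07 and -0.06 in DSS and at 2.77 and 2.24 in AOM+DSS.

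Set directly against DSS, AOM+DSS had 7 chains higher and none lower of 43 tested by limma, where 2.93% of all genes were called higher and 0.111% lower. The median log2 fold change of 35 chains was 2.37, with 31 above 0, beside -0.01 for all genes. Before adjustment, 19 of the chains exceeded DSS and 0 lay below it with p under 0.05, against 11.7% and 2.88% of all genes. Both comparisons with control use the same control libraries, so this contrast was tested on the treated libraries alone. Of the 6 type IV chains the common pair rose, with Col4a2 2.39 higher on the log2 scale (SE 0.32, adjusted p = 0.00663) and Col4a1 1.90 higher (SE 0.39, adjusted p = 0.0362). Of type IX, 2 of 3 chains rose, with Col9a3 3.06 higher (SE 0.44, adjusted p = 0.00869) and Col9a2 2.98 higher (SE 0.58, adjusted p = 0.0301). The others were Col18a1, given above, Col5a3 at 3.21 (SE 0.70, adjusted p = 0.0446) and Col2a1 at 2.21 (SE 0.47, adjusted p = 0.0409). Leaving out each of the 7 libraries in turn, limma still called Col4a2 and Col18a1 6 times, Col9a3 5 times, Col9a2 3 times, Col4a1 and Col2a1 1 time and Col5a3 0 times (adjusted p 0.0554 to 0.124). Col5a3, a minor type V chain, had 0, 2.47, 0 and 1.55 normalized reads in DSS and 8.92, 9.10 and 39.8 in AOM+DSS. All AOM+DSS libraries exceeded all DSS libraries in 15 chains, and no chain had the reverse, where 9.84% and 3.22% of all genes did. Without AOM+DSS a only Col18a1 was called (0.665% of all genes higher) and without AOM+DSS b only Col4a2 (0.72% of all genes higher). With DSS c and d left out no chain was called (0.432% of all genes higher). With DSS a and b left out 9 were, 7 higher and 2 lower (6.92% and 2.53% of all genes).

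DSS libraries a and b differed from c and d in several chains. Col7a1 and Col20a1 were higher in c and d, with 137 and 152 against 41.9 and 52.7 for Col7a1 and 201 and 157 against 56.9 and 62.6 for Col20a1, whereas Col8a1 was higher in a and b. Myeloid marker reads differed the same way as Col8a1, with 1613 and 1022 in DSS a and b against 296 and 268 in c and d, and their part in these values was not tested.

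Genes that make, bind or accompany collagen were read beside the chains. The list of collagen biosynthesis held 31 genes (prolyl and lysyl hydroxylases, chaperones, propeptidases and cross-linking enzymes). Of these, 1 was higher in DSS and 2 in AOM+DSS, where 2.61% and 5.54% of all genes were. None was lower, where 1.78% and 3.35% of all genes were. These counts are small and say little about the list. Its median log2 fold change was -0.05 in DSS and 0.56 in AOM+DSS, beside 0.02 for all genes in both. Adamts3, an enzyme that trims the amino end of procollagen, had 36.4, 42.0, 7.08 and 26.4 normalized reads in DSS, 28.3, 13.2 and 30.9 in AOM+DSS and 0.965, 4.94 and 2.12 in control. Each treated library exceeded each control, with log2 fold changes of 3.39 in DSS (DESeq adjusted p = 0.00942) and 3.17 in AOM+DSS (DESeq adjusted p = 0.0204). Bmp1, which trims the carboxyl end, had 159, 251 and 151 in AOM+DSS and 52.1, 68.1 and 54.0 in control, a log2 fold change of 1.69 (DESeq adjusted p = 0.0111). Adamts2 was the only gene of the list that limma called in AOM+DSS against DSS (2.38, adjusted p = 0.0435, 26 tested), where 2.93% of all genes were called higher. It had 3.72, 4.14 and 13.3 in AOM+DSS and at most 0.824 in DSS.

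Of 10 collagen receptors, DESeq called none in DSS, where 2.61% of all genes were called higher and 1.78% lower. In DSS 2 had an unadjusted p under 0.05, against 13.2% of all genes. The most abundant, Itgb1 and Ddr1, had log2 fold changes of 0.39 and 0.17 in DSS. In AOM+DSS 3 were called higher, where 5.54% of all genes were. These counts are small. The median log2 fold change was 0.28 in DSS and 0.71 in AOM+DSS, beside 0.02 for all genes in both. Itgb1, the shared beta chain of collagen-binding integrins, had 6436, 7654 and 5549 normalized reads in AOM+DSS and 3392, 4137 and 3239 in control (log2 fold change 0.87, DESeq adjusted p = 0.000962). Itga2, its alpha partner on epithelium, had 941, 1085 and 370.1 in AOM+DSS and 143, 320.0 and 124 in control (2.03, DESeq adjusted p = 0.0483). Lair1, an inhibitory collagen receptor of leukocytes, had 60.2, 129 and 74.0 in AOM+DSS and 13.5, 40.5 and 21.2 in control (1.81, DESeq adjusted p = 0.0299). All 3 were higher in every AOM+DSS library than in any control. Against DSS, limma called none of the 8 receptors it could test, where 2.93% of all genes were called higher. At an unadjusted p under 0.05 there were 2, where 11.7% of all genes were higher and 2.88% lower.

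Of 14 other basement membrane genes, 1 was lower in DSS (1.78% of all genes) and 2 were higher in AOM+DSS (5.54% of all genes). Of 10 that limma could test, 2 were higher in AOM+DSS than in DSS (2.93% of all genes). Their median log2 fold change was -0.15 in DSS and 1.08 in AOM+DSS, beside 0.02 for all genes in both. Lamb2, a laminin beta chain, had 198, 198, 173 and 178 normalized reads in DSS, 495, 524 and 370.1 in AOM+DSS and 491, 347 and 563 in control. It fell in DSS, by 1.32 on the log2 scale (DESeq adjusted p = 7.2e-05), had a log2 fold change of -0.01 in AOM+DSS (DESeq adjusted p = 1), and was 1.29 higher in AOM+DSS than in DSS (limma adjusted p = 0.00771). Its relative Lamb1 was 3.53 higher in AOM+DSS than in DSS (limma adjusted p = 0.00976), with 78.1, 312 and 249.7 in AOM+DSS against 11.1, 24.7, 12.7 and 13.96 in DSS. Lama3 and Lama5, laminin alpha chains, rose in AOM+DSS. Lama3 had 5529, 5876 and 3749.5 normalized reads in AOM+DSS and 2895, 2027 and 2259 in control (log2 fold change 1.08, DESeq adjusted p = 0.00693). Lama5 had 2783, 5052 and 1673 in AOM+DSS and 791, 686 and 363 in control (2.37, DESeq adjusted p = 0.017). Each AOM+DSS library was above each control for both genes.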

How the data were processed

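RNA of distal colon crypts was prepared as poly(A) libraries with a kit that does not mark strand, per the labels' protocols. The authors aligned reads to mm9 with TopHat2 2.0 and compared groups with DESeq, per the submitters' processing notes. The sources used here name neither the read counter nor its annotation. The 2 deposited tables hold, per the file headers, mean normalized counts of each group (a signal, reads divided by size factors), the fold ratio, its log2 and a p-value with its adjusted value. Those fold changes and adjusted p-values were used as the authors deposited them. The header of the AOM+DSS table speaks of 4 AOM replicates where the labels list 3; its means could be solved with 3 libraries.

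Because a group mean is printed with 15 digits, the whole reads of each library were searched for that give it, up to a mean of 10000 for 3 libraries and 1000 for 4. This recovered 99.0% of genes in control, 79.2% in DSS and 99.2% in AOM+DSS; genes above those means were left out of limma. Recovered reads numbered 1786701 to 3819482 per DSS library, 13745369 to 20139515 per AOM+DSS library and 13478107 to 14985085 per control library. These are partial sums, not library depth, which is unknown. The search was tested on simulated data. No library appeared to be deposited again under another name.

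AOM+DSS was compared with DSS by limma 3.58.1 (R 4.3.3) with a mean-variance trend on log2(normalized reads + 1), with no filter; a fold on that scale understates changes of low genes. The same fit against control was an alternative to the authors' test. Medians of log2 folds are of group means. Lengths per kilobase are of the longest coding transcript in GENCODE M21. The collagen chains and all gene lists were chosen with earlier results of these data known. Every chain that was called, or had a mean of at least 50 in a group, is named; others are given as counts or ranges, and of each partner list the called genes with the smallest adjusted p. 1 gene of the basement membrane partner list is not reported here, and the list was counted without it. Col2a1, Col5a3, Col9a1, Col14a1, Col17a1 and Col23a1 are named also from the limma calls, and Col4a3, Col6a5 and Col27a1 after their values were seen. Other settings are in the closing section.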

Additional observations from a re-analysis of the deposited data

Results flagged for a closer look

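Within the DSS group, 2 of the 19 chains tested for a library that stands apart had one, and chance alone gives about 1 in 20. Col9a3 had 19.8 normalized reads in library b, where the other DSS libraries had 43.5 to 45.0, and Col11a2 had 80.7 in library b, where the others had 136 to 144. The effects of the 2 treatments differed, by the direct limma comparison of AOM+DSS with DSS, for 7 chains of 43 tested. Of all genes, 2.93% were called higher and 0.111% lower. The log2 differences, AOM+DSS minus DSS, were 2.21 for Col2a1, 1.90 for Col4a1, 2.39 for Col4a2, 3.21 for Col5a3, 2.98 for Col9a2, 3.06 for Col9a3 and 2.68 for Col18a1. All 3 AOM+DSS libraries were above all 4 DSS libraries for each of the 7, as for 9.84% of all genes. The 7 were picked by a test on these same libraries, so the lack of overlap adds no support. Leaving out each library in turn, limma still called Col4a2 and Col18a1 6 of 7 times, Col9a3 5 times and Col9a2 3 times. It called Col4a1 and Col2a1 1 time and Col5a3 0 times.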

How the results depend on the processing

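No paired analysis was possible because the recovered libraries carry no replicate numbers of the labels. Settings that leave out pairs of libraries, and the other pseudocounts, filter and scaling used with limma against control, were chosen after seeing the data. Fits without a library against control are limma fits, so they differ from the authors' test in method as well. The authors' test called 2 chains in DSS, 1 at a threshold of 0.01. Limma called 2 there, of which Col16a1 is shared, 0 to 2 with a library left out and 1 with a pseudocount of 10. With a library left out, 0.403% to 3.85% of all genes were called higher and 0.304% to 2.49% lower. The authors' test called 5 chains in AOM+DSS. Limma called 8 with all libraries and 2 to 15 with a library left out, and 8 with a pseudocount of 0.5, a mean of at least 10 or scaling by the recovered total, and 19 without control b and AOM+DSS c. The share of all genes with a library left out was 2.43% to 15.1% higher and 0.461% to 9.89% lower. Against DSS the chains called numbered 7, and 1 to 7 with a library left out (0.665% to 4.46% of all genes higher). They numbered 2 at a threshold of 0.01, 4 with a pseudocount of 10 and 0 without DSS c and d. The median log2 fold change in DSS ranged from -1.36 to 0.41 with a library left out, and was -0.26 with 10 added to both means and -1.46 without DSS a and b. In AOM+DSS it ranged from -0.17 to 2.80. Against DSS it ranged from 1.33 to 2.69 and was 0.58 with 10 added.

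Signs of single chains turned as follows. In DSS, with a library left out, Col1a1 ranged from -1.56 to 0.96, Col1a2 from -1.71 to 1.33, Col3a1 from -1.41 to 1.33, Col4a2 from -0.32 to 0.40, Col5a1 from -2.36 to 0.068, Col5a2 from -1.46 to 1.61, Col6a1 from -1.64 to 1.09, Col6a2 from -1.87 to 0.32, Col7a1 from -0.56 to 0.051 and Col15a1 from -0.15 to 0.86. Without DSS c and d the values were 0.47 for Col1a2, 0.14 for Col3a1, 0.31 for Col4a2 and 0.25 for Col8a1, and without DSS a and b they were 0.50 for Col5a2 and 0.53 for Col7a1; Col5a2 was 0.16 with a pseudocount of 0.5. In AOM+DSS Col8a1 ranged from -0.29 to 0.52 and was -0.051 when scaled by the recovered total, and Col15a1 ranged from -0.67 to 0.97 and was -0.087 without control b and AOM+DSS c. Against DSS, Col15a1 ranged from -0.95 to 0.70 and was 0.017 with a pseudocount of 10 and 0.050 without DSS a and b. Col16a1 ranged from -0.27 to 0.20 and Col20a1 from -0.56 to 0.038, and without DSS c and d the values were 0.086 for Col16a1, 0.50 for Col20a1, 0.18 for Col7a1 and -0.24 for Col8a1. The cause of these changes was not tested.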
